A study of Mus musculus with 21 samples.

Results

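RNA of sorted mouse β-cells labelled as Isl1 knockout (Isl1-KO) was compared with RNA of wild-type (WT) β-cells across the whole transcriptome. The compared groups hold 10 of the study's 18 RNA libraries, 5 labelled Isl1-KO and 5 labelled WT, out of 21 samples in all. Genes were kept when their mean normalized value over the 18 RNA libraries was at least 1, which left 13501 of 21913. The study asks what the cofactor LDB1 and its partner ISL1 maintain in differentiated β-cells, and its other 8 RNA libraries come from β-cells labelled as Ldb1 knockout (Ldb1-KO). Those 8 also entered the test of each gene, which took its estimate of spread from all 18 libraries.

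All mice for RNA were males of a mixed SV/129, C57Bl/6 strain. Every group, WT included, carried the reporter alleles Rosa26LsLeYFP/ LsLeYFP and the transgene MIP-CreERTm, a tamoxifen-activated Cre driven by an insulin promoter. The Isl1-KO mice also carried Isl1L/L, and the Ldb1-KO mice Ldb1L/L. Tamoxifen was given by mouth in rounds of 5 gavages starting at postnatal day 28. The WT and Ldb1-KO mice received 150 µg per g and a further round at day 35, and were used at day 56. The Isl1-KO mice received 100 µg per g in 1 round only and were used at day 49. The Isl1L/L genotype, the younger age and the smaller exposure to tamoxifen therefore cannot be told apart in any difference below. Cre acted only where the insulin promoter was active, and the sort kept cells that carried the lineage mark, so cells that had stopped making insulin after recombination stayed in the sample. Nothing in the labels tells whether each library is its own mouse or culture, and the p-values measure only the spread between these libraries.

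ISL1 is a LIM-homeodomain transcription factor that all endocrine cells of the islet make. It binds DNA through its homeodomain and reaches other factors through its LIM domains, which the adaptor LDB1 holds together in larger complexes. In β-cells it is known as an activator of genes for glucose uptake and insulin release, among them Slc2a2, Mafa and Pdx1.

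Values are the deposited log2 values, read as log2(normalized value + 1), and each difference is the mean of Isl1-KO minus the mean of WT on that scale. A gene was called higher or lower when its Benjamini-Hochberg adjusted p, from limma over all genes tested, was under 0.05. The gene lists below were chosen with earlier results of these data known. Counts of their members beside the share of all genes are descriptions and not tests. Between 13353 and 14129 genes were above 0 in a library. WT replicate 1 stood apart through genes of acinar cells, the enzyme-secreting cells around the islet: their mean was 10.15 there and 1.30 to 1.76 in the other WT libraries. Among the Isl1-KO libraries, replicates 1, 2 and 3 lay at 47.4 to 56.6 on the second principal component of all 18 libraries, and replicates 4 and 5 at 0.193 and -0.761, beside -41.4 to 7.9 for WT. Where a call was lost without replicates 1, 2 and 3, which leaves 2 Isl1-KO libraries, the adjusted p of that fit is given beside it. A lower value in such bulk RNA can come from fewer cells that make the transcript or from less RNA per cell, and the libraries cannot tell these apart.

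Isl1 itself was read at 9.08, 9.43, 9.04, 9.66 and 9.43 in Isl1-KO replicates 1 to 5 and at 9.58, 9.66, 9.61, 9.36 and 9.53 in WT. The groups overlapped, and the difference of -0.22 (SE 0.17) was not past the threshold (adjusted p = 0.431). One value covers all exons together, and the labels do not say which piece the Isl1L/L allele loses, so the level does not check them. Isl1 was lower in Isl1-KO than in Ldb1-KO, by -1.23 (adjusted p = 1.63e-05), where the 8 libraries ran from 9.88 to 11.05. Ldb1 did not differ detectably from WT, with a difference of 0.05 (SE 0.19, adjusted p = 0.904). In the Ldb1-KO libraries it read 5.58 to 6.88, against 7.11 to 7.66 in WT, so part of its RNA was still read there.

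Across the transcriptome 948 genes were called higher in Isl1-KO, 7.02% of those tested, and 1133 lower, 8.39%. At least 2-fold on the log2(value + 1) scale, 516 rose (3.82%) and 398 fell (2.95%). A rise of at least 4-fold was seen for 131 of them and a fall of that size for 98. The median difference over all genes tested was -0.03. Every Isl1-KO library lay above every WT library for 603 genes (4.47%) and below for 840 (6.22%). Calls near the threshold depended on single libraries: 530 of the genes called higher and 671 of those called lower kept their call in each of the 10 fits that left out 1 library.

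**Figure D1:**
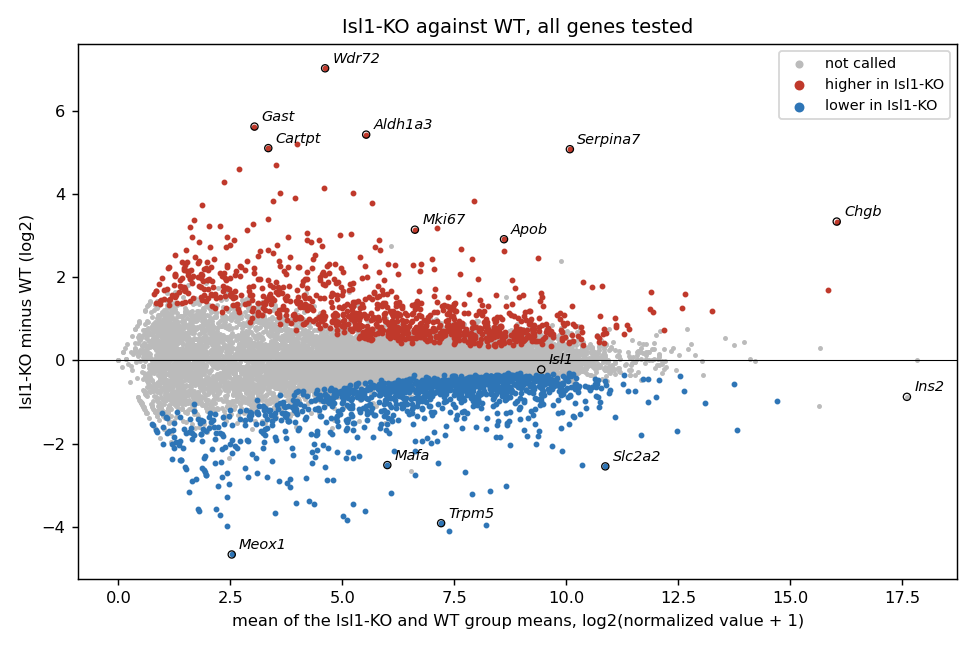
Each point is 1 of the 13501 genes tested, with the mean of the Isl1-KO and WT group means on the x axis, in log2(normalized value + 1), and the Isl1-KO minus WT difference on the y axis, in log2. Genes called higher are red and genes called lower blue; Isl1 lies near 0 among the grey points, Wdr72 at 7.01 and Meox1 at -4.66.

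Many genes of the mature β-cell programme were lower in the Isl1-KO libraries. Of 26 β-cell identity genes tested, 13 fell and the other 13 did not pass the test. Their median difference was -0.96, beside -0.03 for all genes and 8.39% of all genes called lower. Genes that fell serve glucose uptake (Slc2a2), the cell's own transcription (Mafa, Pdx1), incretin sensing (Glp1r), granule zinc (Slc30a8), excitability (Trpm5) and cell coupling (Gjd2). The call held in each fit that left out 1 library for 11 of the 13.

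Slc2a2 encodes GLUT2, the main glucose transporter of the mouse β-cell. It stood at 9.73, 10.11, 10.63, 8.19 and 9.31 in the Isl1-KO libraries and at 12.11, 12.37, 11.97, 11.85 and 12.40 in WT. Every Isl1-KO library was below every WT library, and the difference was -2.55 (SE 0.46, adjusted p = 0.00102). G6pc2, a glucose-6-phosphatase of islets, fell by 1.68 on the log2 scale (SE 0.30, adjusted p = 5.80e-04), from a WT mean of 14.65 ± 0.34 (SD, n = 5) to 12.97 ± 0.73 (SD, n = 5).

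Mafa, a transcription factor of mature β-cells that drives insulin genes, read 5.40, 4.87, 5.68, 2.73 and 5.05 in Isl1-KO and 8.09, 7.92, 6.54, 5.70 and 8.05 in WT. The lowest WT library, replicate 4, lay only just above the highest Isl1-KO library. The difference was -2.51 (SE 0.59, adjusted p = 0.00601). Pdx1, the homeodomain factor needed for pancreas formation and for the mature β-cell, was tighter: 7.26, 7.39, 7.14, 6.86 and 6.94 against 8.38, 8.37, 8.33, 8.18 and 8.41. It fell by 1.22 on the log2 scale (SE 0.14, adjusted p = 2.37e-06) with no overlap. Nkx6-1, the third factor of that trio, had the same mean in both groups, 7.29 ± 0.36 in Isl1-KO and 7.29 ± 0.14 in WT (SD, n = 5 each; adjusted p = 0.997).

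Trpm5, a calcium-activated cation channel that adds to β-cell depolarization, showed the largest fall in the list. Its values were 5.82, 5.91, 5.89, 3.14 and 5.48 in Isl1-KO and 9.33, 9.21, 9.29, 8.72 and 9.24 in WT, which gave a difference of -3.91 (SE 0.41, adjusted p = 6.79e-07). Replicate 4 was the lowest Isl1-KO library for Trpm5, as it was for Slc2a2, Mafa and Pdx1. Slc30a8, the zinc transporter of insulin granules, fell by 1.78 on the log2 scale (adjusted p = 3.71e-07), and Glp1r, the receptor for the incretin GLP1, by 1.54 (adjusted p = 3.48e-05). Gjd2, whose gap junctions couple neighbouring β-cells, stood at 9.39, 9.44, 9.75, 9.24 and 9.52 against 10.83, 10.92, 10.68, 10.68 and 10.92. It had the smallest adjusted p of the list (4.85e-08) for a difference of -1.34 (SE 0.12).

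Nnat, an imprinted membrane protein that aids insulin processing, fell by 2.29 on the log2 scale (SE 0.34, adjusted p = 5.04e-05), and Ero1lb, a thiol oxidase for insulin folding, by 1.04 (adjusted p = 0.00516). Ucn3, a peptide that marks mature mouse β-cells, had a difference of -1.07 (SE 0.34, adjusted p = 0.0382) with overlapping groups. Its call was lost, at an adjusted p of 0.0511 to 0.0849, without any 1 of the 5 WT libraries or of Isl1-KO replicates 1, 2, 4 and 5. Pcsk1, a prohormone convertase, lay at -0.38 (adjusted p = 0.0223), a call lost without WT replicate 4 (adjusted p = 0.0582) or Isl1-KO replicates 1 or 2 (0.0529 and 0.0711), and at 0.355 without Isl1-KO replicates 1, 2 and 3.

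**Figure D2:**
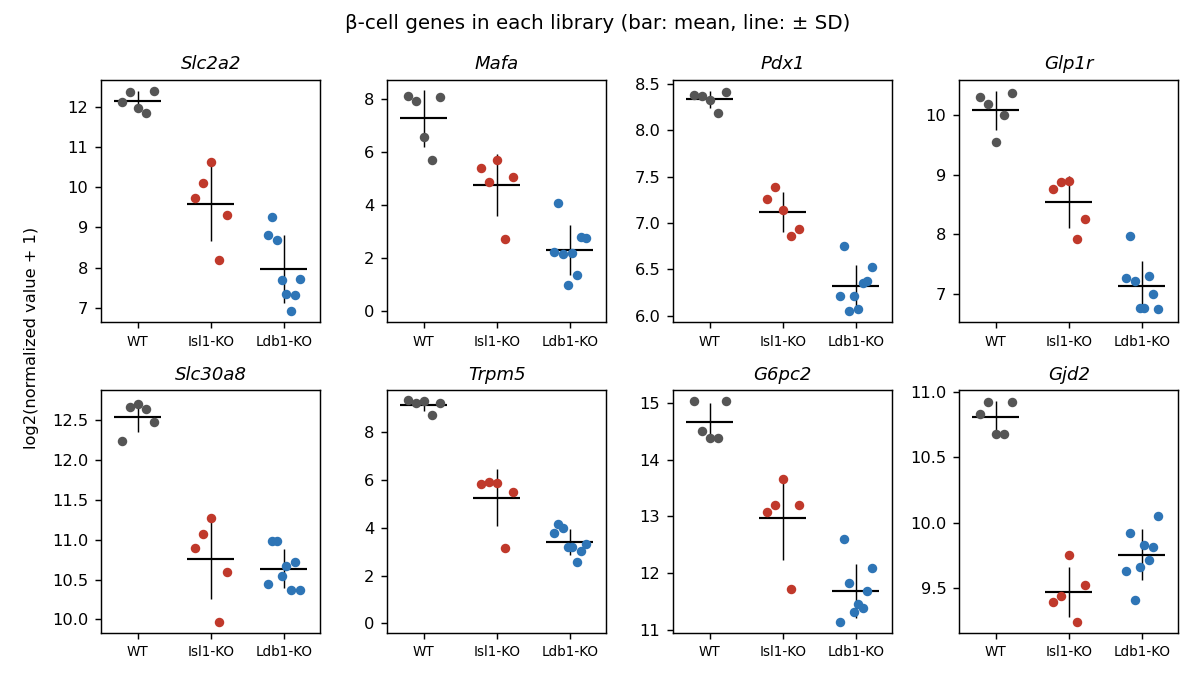
Points are single libraries of WT (n = 5), Isl1-KO (n = 5) and Ldb1-KO (n = 8) on the y axis, log2(normalized value + 1), for 8 β-cell genes; horizontal bars are means and vertical lines ± SD. All Isl1-KO libraries sit below all WT libraries in each panel, and the y axes do not start at 0.

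The hormone genes themselves did not pass the test in the fit of all libraries. Ins1 read 15.02, 15.02, 15.42, 15.02 and 15.02 in Isl1-KO and 17.01, 15.99, 15.99, 15.99 and 15.99 in WT. The groups did not overlap, yet the difference of -1.10 (SE 0.40) had an adjusted p of 0.0758 in the fit of 18 libraries. In a fit of the 10 libraries alone the adjusted p was 6.48e-04. The SD of Ins1 was 0.18 in Isl1-KO, 0.46 in WT and 0.93 in Ldb1-KO, whose spread enters only the fit of 18. Ins2 was at 17.16 ± 0.84 in Isl1-KO and 18.04 ± 0.14 in WT (SD, n = 5 each), a difference of -0.88 that did not pass (adjusted p = 0.293). Iapp, which encodes the co-secreted peptide amylin, differed by 0.02 (SE 0.35, adjusted p = 0.98). The highest value, 18.29, is shared by all 18 libraries and the next values stand on a common ladder with wide steps, so differences among the most abundant genes are coarse.

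Where Isl1-KO could be set against Ldb1-KO in the same fit, the β-cell identity genes were the higher of the pair in the Isl1-KO libraries. Of the 26 genes, 15 were higher in Isl1-KO than in Ldb1-KO and the other 11 did not pass the test, with a median difference of 0.84. Without Isl1-KO replicates 1, 2 and 3, 3 of the 26 were higher and 1 was lower than in Ldb1-KO, with a median of 0.57, and leaving out 1 library gave 14 or 15 higher. Over all genes 6.31% were higher than in Ldb1-KO and 6.96% lower in the fit of all libraries. Without Isl1-KO replicates 1, 2 and 3 these counts went from 852 to 183 and from 940 to 153. Mafa was higher than in Ldb1-KO by 2.42 (adjusted p = 0.00447), Ucn3 by 2.23 (adjusted p = 8.06e-05) and Ins2 by 2.07 (adjusted p = 0.00847). Slc30a8 and Gjd2, in contrast, differed from Ldb1-KO by 0.13 (adjusted p = 0.667) and -0.28 (adjusted p = 0.0938). Age and tamoxifen separate Isl1-KO from Ldb1-KO as they do from WT.

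The wider list of islet transcription factors, which includes Pdx1 and Mafa, held calls in both directions. Of 25 tested, 4 rose and 3 fell, with a median difference of -0.12, beside 7.02% of all genes called higher and 8.39% lower. The fit without Isl1-KO replicates 1, 2 and 3 called 2 higher and 2 lower. Rfx3, a factor of endocrine differentiation and cilia, read 10.17, 10.00, 9.65, 9.70 and 9.39 in Isl1-KO against 8.08, 8.89, 9.11, 8.73 and 8.20 in WT, all above WT. It rose by 1.18 (SE 0.19, adjusted p = 1.28e-04). Its relative Rfx6, required for islet formation, rose by 0.93 (adjusted p = 7.85e-04; 0.143 without Isl1-KO replicates 1, 2 and 3). Esrrg, a nuclear receptor of β-cell metabolic maturation, rose by 1.37 (adjusted p = 1.74e-04) and was also higher than in Ldb1-KO, by 0.88 (adjusted p = 0.00538). Besides Pdx1 and Mafa, Mnx1, a homeodomain factor that holds β-cell identity, fell by 1.83 on the log2 scale (SE 0.52, adjusted p = 0.0208; 0.265 without Isl1-KO replicates 1, 2 and 3). St18, a zinc-finger factor, lay at 0.56 (adjusted p = 0.037), and its call was lost at 0.0648 to 0.103 without any 1 of WT replicates 1, 4 and 5 and Isl1-KO replicates 1, 2 and 3, and at 0.516 without those 3 Isl1-KO libraries.

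Among 17 genes of the ISL1 and LDB1 complex and its relatives, Lmo1 alone passed the test, as lower, beside 8.39% of all genes. It encodes a LIM-only protein that binds LDB1 without touching DNA itself. Lmo1 was at 0 in Isl1-KO replicates 1 to 4 and at 1.00 in replicate 5, and at 2.83, 1.82, 3.33, 2.79 and 3.25 in WT. The difference was -2.60 (SE 0.40, adjusted p = 7.62e-05). In Ldb1-KO it ran from 0.00 to 0.89, a difference of 0.09 from Isl1-KO (adjusted p = 0.902).

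Granule genes were called in both directions. Of 19 granule and prohormone-processing genes, 5 rose and 5 fell, with a median difference of 0.29, beside 7.02% and 8.39% of all genes. The members called lower became 3 without Isl1-KO replicates 1, 2 and 3. Chgb, a granin that helps form secretory granules, was at 18.29, 18.29, 15.66, 18.29 and 17.98 in Isl1-KO against 13.96, 14.37, 14.50, 14.50 and 14.50 in WT. In 3 of the 5 Isl1-KO libraries it therefore held the highest value of the whole table, and the difference was 3.33 (SE 0.35, adjusted p = 1.50e-06). Scg5, the chaperone of the convertase PCSK2, read 13.31, 13.40, 12.80, 13.96 and 13.75 against 11.97, 11.89, 11.71, 11.76 and 11.90, a rise of 1.60 (adjusted p = 6.65e-08). Pam, which amidates peptide hormones, rose by 1.19 (adjusted p = 1.27e-06), the granin Vgf by 1.98 (adjusted p = 0.00243) and Slc17a9, a vesicular nucleotide transporter, by 0.95 (adjusted p = 0.00153; 0.0539 without Isl1-KO replicates 1, 2 and 3).

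Scgn, a calcium sensor of β-cell exocytosis, fell from 10.95 ± 0.09 to 9.65 ± 0.14 (SD, n = 5 each; adjusted p = 2.46e-07). Scg2, another granin, fell by 0.96 on the log2 scale (adjusted p = 0.00223). The other members called lower were Slc30a8 and Pcsk1, described above, and Cpe, a carboxypeptidase of prohormone processing at -0.56 (adjusted p = 0.0482). The Cpe call was lost, at 0.064 to 0.115, without any 1 library other than Isl1-KO replicate 5, and at 0.371 without Isl1-KO replicates 1, 2 and 3. Of 25 exocytosis genes, 3 rose and 3 fell, near the 7.02% and 8.39% of all genes. The 3 that rose became 1 without Isl1-KO replicates 1, 2 and 3 and 9 without replicates 4 and 5. Cadps, which primes dense-core granules, fell by 0.88 on the log2 scale (SE 0.12, adjusted p = 8.37e-06). Sytl4, which docks granules, fell by 1.13 (SE 0.15, adjusted p = 1.44e-05), and Rab3a, a granule GTPase, by 0.53 (adjusted p = 0.00852; 0.0632 without Isl1-KO replicates 1, 2 and 3). The vesicle proteins Syt5 and Snap25 rose by 1.15 (adjusted p = 5.80e-04) and 0.85 (adjusted p = 0.00238; 0.249 without Isl1-KO replicates 1, 2 and 3). Napb lay at 0.60 (adjusted p = 0.0323), and its call was lost at 0.0544 to 0.104 without any 1 of WT replicates 1 and 5 and Isl1-KO replicates 1, 2 and 4, and at 0.318 without Isl1-KO replicates 1, 2 and 3.

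Channel genes were also called in both directions. Of 26 excitability genes, 6 rose and 5 fell, beside 7.02% and 8.39% of all genes, and 4 of each kept the call in every fit that left out 1 library. Their median difference of 0.34 turned to -0.07, with 3 called higher and 4 lower, without Isl1-KO replicates 1, 2 and 3. Leaving out replicates 4 and 5 instead gave a median of 0.58, with 9 called higher and 4 lower. Atp2a2, the calcium pump that refills the endoplasmic reticulum, read 11.75, 11.80, 11.95, 11.21 and 11.40 in Isl1-KO against 13.13, 13.66, 13.13, 12.99 and 13.66 in WT. Its fall of 1.70 on the log2 scale (SE 0.16) had an adjusted p of 4.81e-08. Kcnh6, a potassium channel, rose by 2.15 (SE 0.24, adjusted p = 1.16e-06), Scn3a, a sodium channel of rodent islet cells, by 1.95 (SE 0.22, adjusted p = 1.16e-06), and Kcnma1, the large-conductance potassium channel, by 1.04 (adjusted p = 9.65e-05). Cacna1a, a calcium channel subunit, rose by 1.24 (adjusted p = 1.69e-04; 0.0583 without Isl1-KO replicates 1, 2 and 3).

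Of 20 receptors that modulate insulin secretion, 3 rose and 5 fell, with a median difference of -0.37, beside 7.02% of all genes called higher and 8.39% lower. Without replicates 4 and 5, 3 were called lower. Ffar2, a receptor for short-chain fatty acids, rose from 7.99 ± 0.20 to 9.72 ± 0.45 (SD, n = 5 each; adjusted p = 1.74e-07). Avpr1b, a vasopressin receptor, stood at 4.58, 3.91, 2.53, 4.02 and 2.04 in Isl1-KO and at 0.00 to 1.32 in WT, a difference of 2.73 (adjusted p = 1.05e-04). Crhr2, the receptor that urocortins bind best, was listed at 0 in all WT libraries and at 0.00, 1.92, 1.90, 2.53 and 2.04 in Isl1-KO (adjusted p = 0.017; 0.0987 without Isl1-KO replicates 4 and 5). Besides Glp1r, the galanin receptor Galr1 fell by 0.99 on the log2 scale (adjusted p = 4.29e-04) and Gpr119, a lipid receptor, by 0.75 (adjusted p = 0.00116).

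Crhr1 and Chrm3 had weaker calls. Crhr1, the corticotropin-releasing hormone receptor, was listed at 0 in all Isl1-KO libraries and in WT replicates 3 and 4, and at 4.16, 2.55 and 3.35 in WT replicates 1, 2 and 5 (adjusted p = 0.0301). Its call was lost at 0.0517 to 0.108 without any 1 of those 3 WT libraries and Isl1-KO replicates 1, 2 and 3, and at 0.198 without those 3 Isl1-KO libraries. Chrm3, the muscarinic receptor for nerve-borne acetylcholine, lay at -0.56 (adjusted p = 0.0242), and its call was lost without WT replicates 2 or 5 or Isl1-KO replicate 4 (0.0706, 0.0522 and 0.0674).

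Many transcripts known from immature or dedifferentiated β-cells were higher in the Isl1-KO libraries. Of 17 such genes, 11 reached the filter, whose mean includes the knockout libraries, so a gene near 0 in WT could enter through them. Of those 11, 7 rose and 4 did not pass the test, beside 7.02% of all genes called higher. The median difference of 1.87 covers only the genes tested. Of 23 endocrine progenitor genes, 19 reached the filter. Of those 19, 5 rose and 14 did not pass, and the median of -0.07 lay near that of all genes. At an unadjusted p under 0.05 in the limma fit, 3 members were lower. Gast is counted among the rises of both lists. Each of these calls held in every fit that left out 1 library.

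Gast, the hormone gastrin that fetal islets make, read 6.00, 5.10, 5.45, 6.13 and 6.55 in Isl1-KO and 0 in 4 of 5 WT libraries, with 1.16 in WT replicate 3. The difference of 5.61 (SE 0.37) had an adjusted p of 2.47e-10. Neurog3, the factor that commits progenitors to the endocrine fate, stood at 4.38, 5.23, 3.21, 4.44 and 4.90 against 1.75, 0.00, 0.00, 2.46 and 2.31, a difference of 3.13 (adjusted p = 2.80e-05). Its level was below that in Ldb1-KO, by -1.53 (adjusted p = 0.0134). Cartpt, a neuropeptide of islet development, lay within a narrow band of 5.72 to 6.18 in Isl1-KO and at 0.00 to 2.27 in WT (difference 5.10, adjusted p = 1.46e-08). It was above its Ldb1-KO level by 1.89 (adjusted p = 0.00242).

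Fev, a factor of late endocrine progenitors and serotonin neurons, rose by 2.49 (SE 0.55, adjusted p = 0.00299). Sox4 rose by 1.03 (adjusted p = 0.0119; 0.0563 without Isl1-KO replicates 1, 2 and 3), and Bambi, a decoy receptor for TGF-β signals, by 1.13 (adjusted p = 0.0114; 0.0855 without Isl1-KO replicates 4 and 5). Bach2, a repressor best known from B lymphocytes, rose by 3.22 (adjusted p = 4.19e-06). Cd81, a tetraspanin of immature β-cells, rose by 1.38 (adjusted p = 6.04e-06) and Fabp5, a fatty acid carrier, by 1.87 (adjusted p = 7.97e-05). Of 16 genes that mature β-cells normally keep silent, 7 reached the filter. Of those 7, Oat alone passed the test, beside 7.02% of all genes called higher. It rose by 1.65 (adjusted p = 3.08e-04).

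The retinoid pathway held genes that differed from both WT and Ldb1-KO. Retinoic acid is made from vitamin A by aldehyde dehydrogenases, carried inside cells by CRABP proteins and read by RAR and RXR receptors, while RBP4 carries vitamin A between cells. Of 18 retinoid genes, 12 reached the filter. Of those 12, 4 rose and 1 fell, with a median difference of -0.05, beside 7.02% and 8.39% of all genes. Leaving out Isl1-KO replicates 1, 2 and 3 left 2 called higher. Aldh1a3 is also counted among the genes of immature or dedifferentiated β-cells. Aldh1a3, a retinaldehyde dehydrogenase that also marks failing β-cells, read 7.44, 7.36, 8.45, 8.63 and 9.32 in Isl1-KO and 3.39, 2.55, 3.33, 1.98 and 2.86 in WT. All Isl1-KO libraries also lay above all Ldb1-KO libraries, which ran from 2.28 to 5.10. The difference was 5.42 to WT (SE 0.48, adjusted p = 6.42e-08) and 4.57 to Ldb1-KO (adjusted p = 7.14e-07).

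Crabp2 was listed at 0 in every WT and every Ldb1-KO library. It therefore passed the filter through the Isl1-KO libraries alone, and only a rise could be called. In Isl1-KO it read 3.18, 4.68, 4.55, 3.71 and 2.57, and the adjusted p was 5.84e-07 against WT and 5.46e-07 against Ldb1-KO. No fold is given, since one side is at 0. Rbp4 fell, from 6.68, 6.65, 7.23, 6.39 and 6.35 in WT to 5.11, 5.32, 5.00, 4.68 and 5.05, by 1.63 on the log2 scale (adjusted p = 6.83e-06). It was also below Ldb1-KO, by -1.29 (adjusted p = 8.06e-05).

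**Figure D3:**
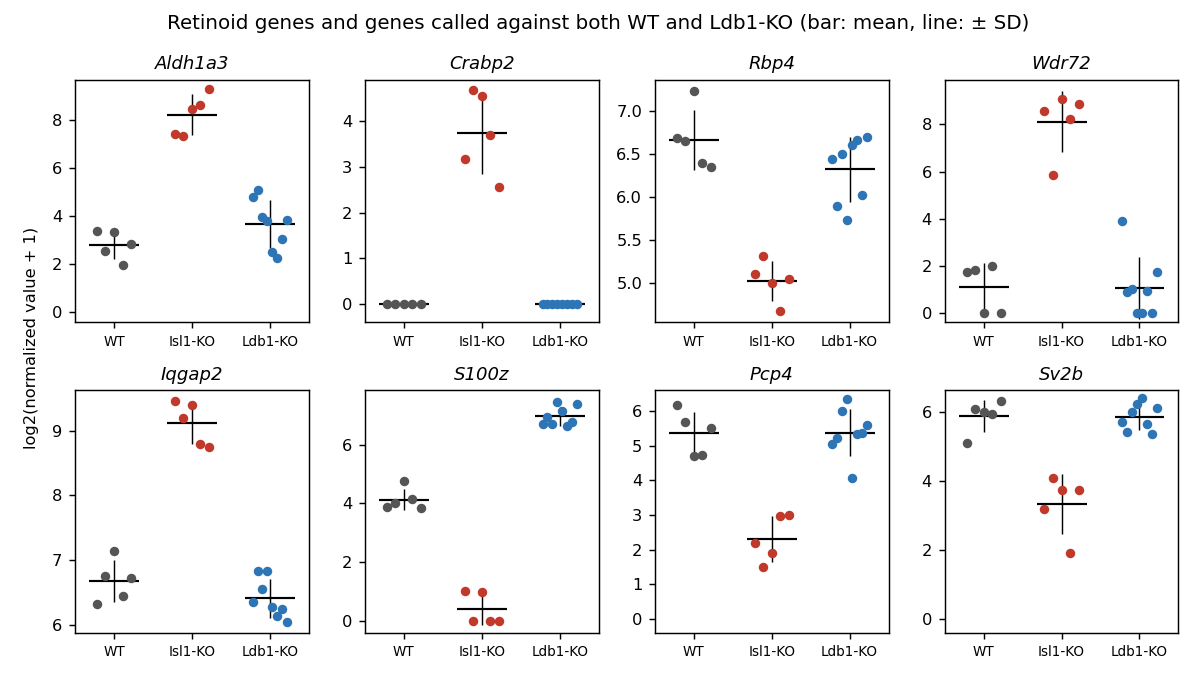
Points are single libraries of WT (n = 5), Isl1-KO (n = 5) and Ldb1-KO (n = 8), in log2(normalized value + 1), with means as horizontal bars and ± SD as vertical lines. Aldh1a3, Crabp2, Wdr72 and Iqgap2 lie above both other groups and Rbp4, S100z, Pcp4 and Sv2b below both; the y axes differ and not all start at 0.

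The receptors were less certain. Rarb, a retinoic acid receptor whose own gene responds to retinoic acid, stood at 2.56, 2.27, 2.23, 2.23 and 2.28 in Isl1-KO and at 0.00, 1.82, 0.00, 1.32 and 0.00 in WT. The groups did not overlap, and the difference was 1.69 (SE 0.51, adjusted p = 0.0266). The call was lost at 0.0596 to 0.0689 without any 1 of WT replicates 1, 3 and 5 and Isl1-KO replicate 1, and at 0.206 without Isl1-KO replicates 1, 2 and 3. Rxra, the common partner receptor, lay at 0.54 (adjusted p = 0.0368), and its call was lost at 0.0507 to 0.0914 without any 1 library other than WT replicate 4 and Isl1-KO replicate 4, and at 0.196 without Isl1-KO replicates 1, 2 and 3.

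The Rarb promoter is printed because it holds the repeat through which that gene is known to respond to retinoic acid. In the RefSeq sequence on GRCm38.p6, chr14:16575427-16575726, minus strand, 250 bases before to 50 after the gene's start, capitals mark a direct repeat, GGTTCA then AGTTCA with any 5 bases between them, from -53 to -37.
Rarb: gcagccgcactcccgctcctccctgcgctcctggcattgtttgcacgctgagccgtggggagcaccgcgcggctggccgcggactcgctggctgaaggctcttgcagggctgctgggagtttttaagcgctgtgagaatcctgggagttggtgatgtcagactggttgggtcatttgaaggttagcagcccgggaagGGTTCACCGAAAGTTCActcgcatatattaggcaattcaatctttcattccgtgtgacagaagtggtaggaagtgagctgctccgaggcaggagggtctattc
The pattern spells out that known repeat, so its presence in Rarb was fixed by the choice of letters. Searched on both strands, it is present in 2 of 32851 promoters, 0.00609%. That share does not cover retinoic acid sites spelled in other ways. A match describes letters only.

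Genes of DNA replication and mitosis were higher in the Isl1-KO libraries, most of all in replicates 1, 2 and 3. Of 29 cell cycle genes tested, 15 rose and 14 did not pass the test, with a median difference of 1.00, beside 7.02% of all genes called higher. Against Ldb1-KO 23 of the 29 were higher, beside 6.31% of all genes. Without Isl1-KO replicates 1, 2 and 3 it was 5 of them, while the count over all genes went from 852 to 183. The mean over the list was 5.98, 5.79, 5.79, 5.35 and 5.28 in Isl1-KO replicates 1 to 5 and 4.88, 4.32, 4.53, 4.23 and 4.66 in WT. Every Isl1-KO library was above every WT library. Against WT without Isl1-KO replicates 1, 2 and 3, 5 members were called higher and the median difference was 0.70. The count over all genes went from 948 to 510 in that fit. Leaving out 1 library gave 12 to 17 members called higher. The Isl1-KO mice were younger than the WT mice, and the part of age in these values was not tested.

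Mki67, which coats chromosomes in dividing cells, read 9.46, 8.75 and 8.72 in Isl1-KO replicates 1, 2 and 3, no more than 7.01 in replicates 4 and 5, against 5.42, 5.41, 4.90, 4.46 and 5.06 in WT. Replicates 4 and 5 were below the other Isl1-KO libraries and still above all WT libraries. The difference was 3.14 (SE 0.47, adjusted p = 1.12e-04). Top2a, the topoisomerase that untangles DNA before mitosis, stood at 9.10, 8.91, 8.69, 8.20 and 8.39 against 7.17, 6.54, 6.53, 6.07 and 6.56, a rise of 2.08 (adjusted p = 3.53e-05). Prc1, a bundler of spindle microtubules, rose by 1.51 (adjusted p = 1.15e-04) and the spindle motor Kif11 by 1.86 (adjusted p = 2.10e-04). The kinetochore motor Cenpe rose by 2.25 (adjusted p = 0.00148; 0.141 without Isl1-KO replicates 1, 2 and 3).

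Cenpf, a kinetochore protein, differed between replicates 1, 2 and 3 and the other pair, with 7.75, 6.58, 6.89, 4.68 and 4.55 in Isl1-KO and 3.18 to 4.57 in WT. Replicate 5 lay inside the WT range. Its difference of 2.13 (adjusted p = 0.0224) was lost at 0.05 to 0.0664 without any 1 of WT replicates 2 and 4 and Isl1-KO replicates 1, 2 and 3. With those 3 Isl1-KO libraries all left out, it was 0.66 (adjusted p = 0.658). Among replication genes, the helicase subunits Mcm5 and Mcm6 rose by 1.57 (adjusted p = 0.00116; 0.0728 without Isl1-KO replicates 1, 2 and 3) and 1.17 (adjusted p = 0.00157; 0.0541). Rrm1, a ribonucleotide reductase subunit, rose by 0.81 (adjusted p = 9.73e-04). Pcna, the replication clamp, lay at 0.06 (adjusted p = 0.885), and the G1 cyclin gene Ccne1 at -0.12 (adjusted p = 0.853).

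**Figure D4:**
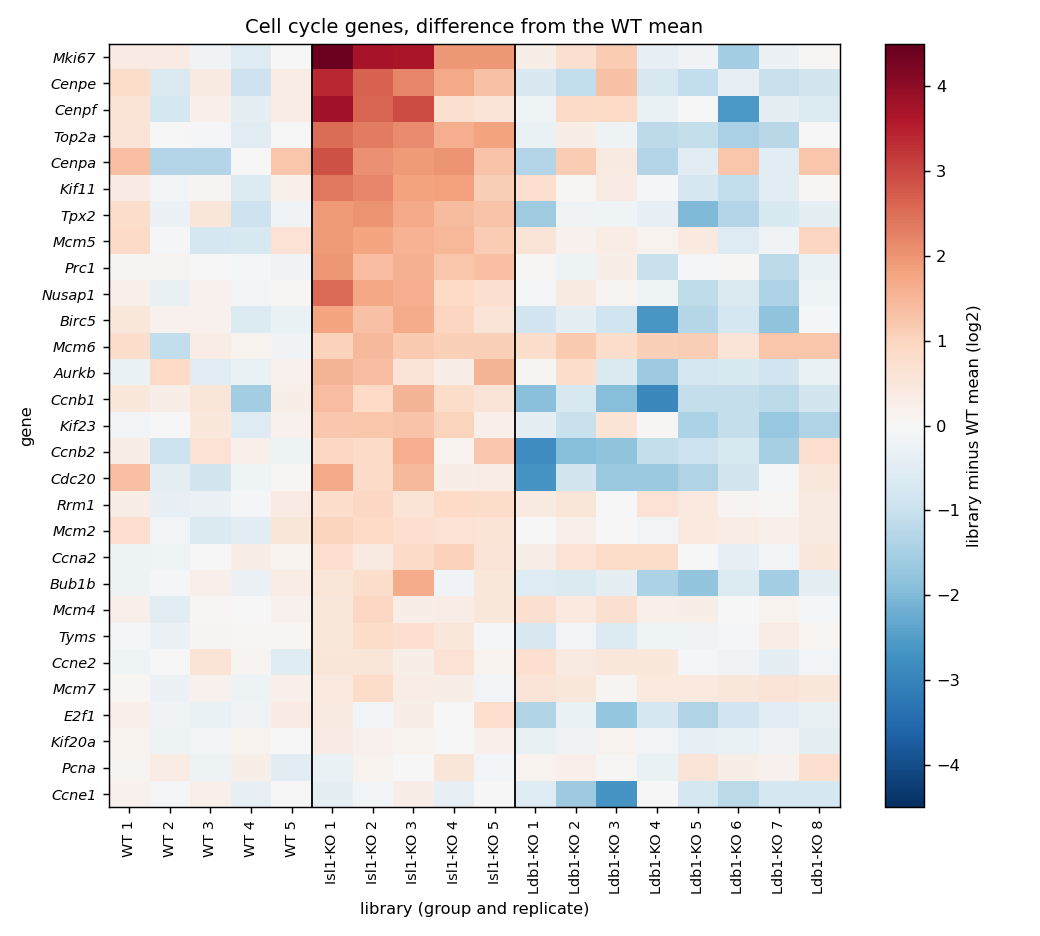
Colour gives each library's value minus the WT mean, in log2, for the 29 cell cycle genes tested (rows) in 5 WT, 5 Isl1-KO and 8 Ldb1-KO libraries (columns), from blue (lower) to red (higher). Red is deepest in Isl1-KO replicates 1, 2 and 3, as for Mki67 and Cenpf, and paler in replicates 4 and 5.

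The promoters of Mcm5 and Mcm6 are shown as those of the called cell cycle genes with an E2F-type element, the class of site through which many replication genes are timed. Both are RefSeq sequences on GRCm38.p6 of 300 bases around the start, Mcm5 at chr8:75109259-75109558, plus strand, and Mcm6 at chr1:128359656-128359955, minus strand. The patterns TTTCCCGC, TTTGGCGC and TTTCGCGC were searched on both strands. Capitals mark matches on the printed strand, from -153 to -146 in Mcm5 and first from -110 to -103 in Mcm6. Matches on the other strand that overlap these run past the capitals and are not marked. They read GCGCCAAA in Mcm5 and GCGCGAAA in Mcm6 on the printed strand.
Mcm5: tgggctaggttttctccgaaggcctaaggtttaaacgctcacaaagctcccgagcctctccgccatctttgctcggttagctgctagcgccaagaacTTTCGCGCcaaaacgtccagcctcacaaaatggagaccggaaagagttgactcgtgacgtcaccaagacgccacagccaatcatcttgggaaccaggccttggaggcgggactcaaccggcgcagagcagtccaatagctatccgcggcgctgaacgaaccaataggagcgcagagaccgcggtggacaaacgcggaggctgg
Mcm6: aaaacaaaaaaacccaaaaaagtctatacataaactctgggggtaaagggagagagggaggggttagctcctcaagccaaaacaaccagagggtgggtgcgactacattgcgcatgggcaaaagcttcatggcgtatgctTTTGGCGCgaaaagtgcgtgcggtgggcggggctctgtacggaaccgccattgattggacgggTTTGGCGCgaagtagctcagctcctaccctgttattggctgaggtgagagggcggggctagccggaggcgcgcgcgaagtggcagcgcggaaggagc
One of these 3 patterns was present in 1.84% of all promoters and in 3 of 25 promoters (12%) of all cell cycle genes tested. Among the cell cycle genes called higher the share was close to that of the list, 2 of 14 promoters (14.3%). No match in the others says only that these letters are not in the window.

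Of 13 genes for D cyclins, CDK inhibitors and their regulators, which act in the G1 phase, 2 fell and 11 did not pass the test, beside 8.39% of all genes called lower. Cdkn2b, which encodes the inhibitor p15, read 3.18, 3.65, 4.28, 4.11 and 4.13 in Isl1-KO against 5.45, 5.45, 5.85, 5.39 and 5.81 in WT, a fall of 1.72 on the log2 scale (adjusted p = 7.91e-06). It was below its Ldb1-KO level too, by -1.07 (adjusted p = 0.00106). Bmi1, a polycomb protein that silences the Cdkn2a locus, lay at -0.39 (adjusted p = 0.0233), a call lost without WT replicate 4 (0.0608) or Isl1-KO replicate 3 (0.0517), and at 0.142 without Isl1-KO replicates 1, 2 and 3.

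Several members of the list of HNF factors and liver-type genes were raised, not all of them particular to liver. Of 13 tested, 6 rose and 1 fell, with a median difference of 0.24, beside 7.02% and 8.39% of all genes. Serpina7, which encodes the thyroxine carrier of plasma, stood at 12.31, 12.56, 11.82, 13.31 and 13.07 in Isl1-KO and at 7.57, 7.17, 7.63, 7.80 and 7.54 in WT. That rise of 5.07 (SE 0.20) had an adjusted p of 4.16e-14, and the level was below that in Ldb1-KO, by -0.92 (adjusted p = 0.00153). Apob, the core protein of lipoproteins, read 10.42, 9.83, 8.84, 11.30 and 9.93 against 6.53, 6.82, 7.85, 7.41 and 7.16, a rise of 2.91 (adjusted p = 1.92e-06). It was above Ldb1-KO by 1.61 (adjusted p = 8.42e-04).

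Anxa10, an annexin of gastric epithelium, rose by 4.70 (SE 0.41, adjusted p = 3.92e-08) and Ambp, a plasma protein precursor, by 1.42 (adjusted p = 2.56e-04). Foxa3, a forkhead factor of liver, lay at -0.66 (adjusted p = 0.0165), a call lost without WT replicate 1 (0.0504) or Isl1-KO replicate 2 (0.0501), and at 0.16 without Isl1-KO replicates 1, 2 and 3. Tmem27 and Ttr, the remaining called members, are described with the α-cell genes.

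Genes of energy and sterol metabolism were lower where they passed the test. Of 18 glycolysis and pyruvate genes, 6 fell and 12 did not pass, with a median difference of -0.44; without Isl1-KO replicates 1, 2 and 3, 3 were called lower. Aldoc, an aldolase, fell from 5.43 ± 0.28 to 4.06 ± 0.33 (SD, n = 5 each; adjusted p = 9.07e-05). Pfkp, a phosphofructokinase, fell by 0.70 on the log2 scale (adjusted p = 6.45e-04) and Gpd2, the mitochondrial enzyme of the glycerol phosphate shuttle, by 1.03 (adjusted p = 0.00305). Of 29 oxidative phosphorylation genes, 4 fell and 25 did not pass, with a median of -0.20. That median turned to 0.07, with 2 called lower and 1 higher, without Isl1-KO replicates 1, 2 and 3. Sdha, of complex II, fell by 0.67 on the log2 scale (SE 0.11, adjusted p = 2.00e-04). The ATP synthase subunit gene Atp5g1 fell by 1.68 (adjusted p = 0.00236; 0.159 without Isl1-KO replicates 1, 2 and 3) and Cox5a, of complex IV, by 1.23 (adjusted p = 0.00775; 0.459). Cox6a2, another complex IV subunit, lay at -2.75 (adjusted p = 0.0329), and its call was lost at 0.0585 to 0.0696 without any 1 of WT replicates 1 and 5 and Isl1-KO replicates 1, 4 and 5.

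Cholesterol synthesis showed 8 falls among 22 genes, with a median difference of -0.44, and the other 14 did not pass the test. The demethylation enzyme genes Sc4mol and Cyp51 fell by 0.59 on the log2 scale (adjusted p = 7.97e-04) and 0.75 (adjusted p = 0.0024). Of the 8 calls, 4 held in every fit that left out 1 library, and without Isl1-KO replicates 1, 2 and 3 the list had 4. Beside these lists, 8.39% of all genes tested were called lower.

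Of 27 genes of the unfolded protein response, 3 rose and 1 fell, with a median difference of -0.01, near the 7.02% and 8.39% of all genes. Without Isl1-KO replicates 1, 2 and 3 the median was 0.19, with 1 called higher. Ern1, which encodes the sensor IRE1α, rose from 9.30 ± 0.16 to 10.44 ± 0.23 (SD, n = 5 each; adjusted p = 6.36e-06), and the folding enzyme Pdia3 by 0.72 (adjusted p = 0.00327; 0.241 without Isl1-KO replicates 1, 2 and 3). Syvn1 lay at 0.79 (adjusted p = 0.017) and Asns at -0.59 (adjusted p = 0.0239). The Syvn1 call was lost without Isl1-KO replicates 1 or 2 (0.0543 and 0.0606) and at 0.701 without replicates 1, 2 and 3, and the Asns call at 0.0621 to 0.0854 without any 1 of WT replicates 1 and 4 and Isl1-KO replicates 1 and 2 and at 0.483 without replicates 1, 2 and 3.

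Of 17 immediate-early and stress genes, 4 passed as higher, with overlapping groups in each, beside 7.02% of all genes. The median difference of -0.07 became 0.82, with 5 called higher, without Isl1-KO replicates 1, 2 and 3, and -0.17 without replicates 4 and 5, where each of the 4 lost its call. Klf4 rose by 1.60 (adjusted p = 0.0148; 0.111 without Isl1-KO replicates 4 and 5). Klf6, Klf2 and Hspa1b lay at 0.85, 1.86 and 1.56 (adjusted p = 0.0231, 0.0316 and 0.0258). Klf6 lost its call at 0.0507 to 0.0607 without any 1 of WT replicates 1, 4 and 5 and Isl1-KO replicates 2 and 4. The Klf2 call was lost at 0.0511 to 0.0992 without any 1 of WT replicates 2, 3 and 4 and Isl1-KO replicates 2, 3 and 4, and at 0.118 without Isl1-KO replicates 1, 2 and 3. Hspa1b, whose reads can be shared with its near-identical neighbour, lost its call at 0.053 to 0.0566 without any 1 of WT replicate 4 and Isl1-KO replicates 2, 4 and 5. Immediate-early genes are known to respond to cell isolation, whose part was not tested.

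Genes answering prolactin and growth hormone gave 3 rises and 2 falls among 16, beside 7.02% and 8.39% of all genes. Tph1, the enzyme of serotonin synthesis that β-cells make in pregnancy, read 11.21, 11.20, 9.82, 12.45 and 11.93 in Isl1-KO against 9.52, 8.90, 9.73, 9.63 and 9.39 in WT, a rise of 1.89 (adjusted p = 0.00315). Socs3, a brake on cytokine signals, rose by 0.96 (adjusted p = 0.00153; 0.0566 without Isl1-KO replicates 1, 2 and 3), and Ghr, the growth hormone receptor, fell by 0.65 on the log2 scale (adjusted p = 0.00251). Fev, the third member that rose, is described above. Stat5a lay at -0.87 (adjusted p = 0.0246), and its call was lost at 0.0557 to 0.0802 without any 1 of WT replicates 1, 2 and 5 and Isl1-KO replicate 4.

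**Figure D5:**
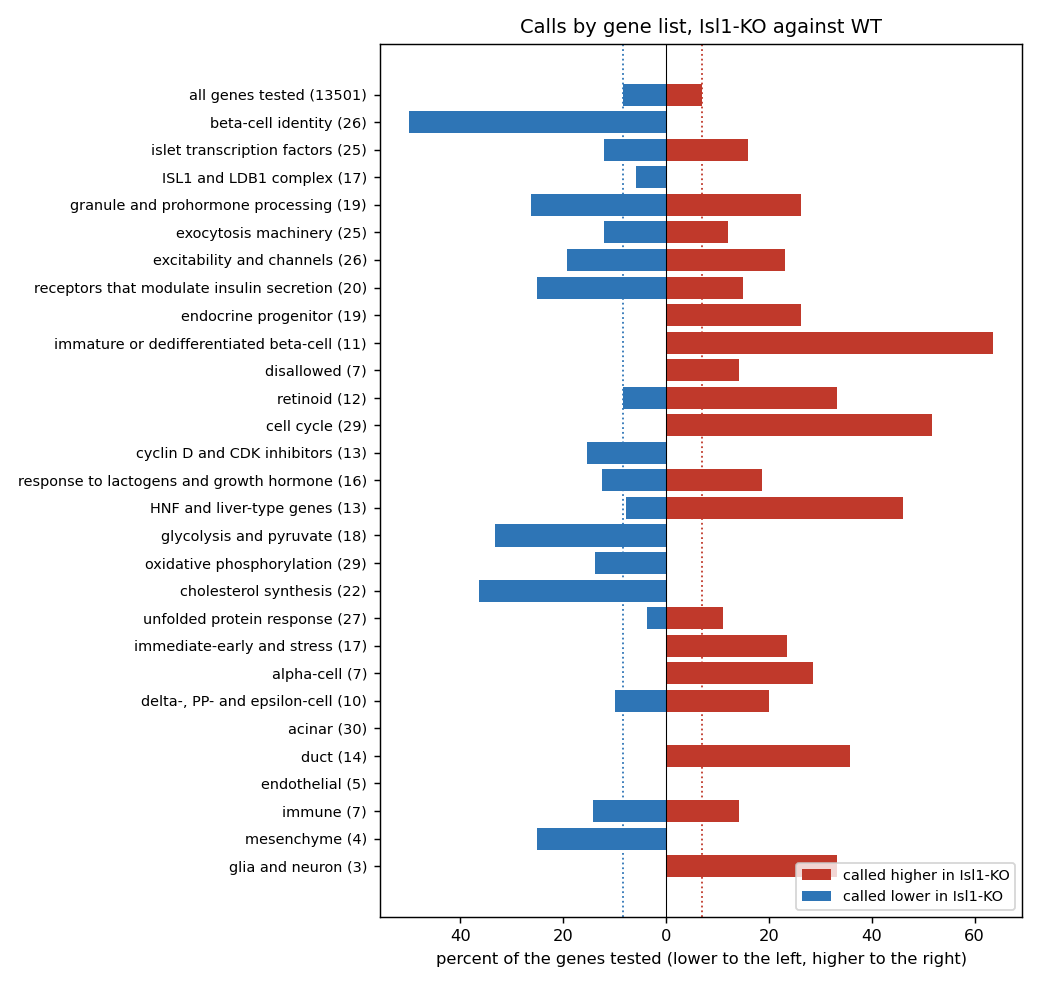
Bars give the percent of tested genes called higher (right, red) or lower (left, blue) in Isl1-KO against WT for each gene list, with the number tested in brackets, and dotted lines mark the percent over all genes, 7.02 and 8.39. The β-cell identity bar reaches furthest left, 13 of 26, and the bar for immature or dedifferentiated β-cells furthest right, 7 of 11.

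Hormone genes of other islet cells were uneven across the Isl1-KO libraries, with no call in the fit of all libraries. Gcg, the glucagon gene of α-cells, read 12.54, 12.67, 11.87, 7.92 and 10.36 in Isl1-KO and 9.21, 7.47, 8.87, 8.77 and 9.07 in WT. Replicate 4 lay inside the WT range, and the difference of 2.39 (SE 0.83) did not pass the test (adjusted p = 0.0649). Without that replicate the adjusted p was 0.00466. Sst, the somatostatin gene of δ-cells, stood at 10.08, 10.90, 10.26, 8.06 and 8.47 against 9.41, 7.84, 8.17, 8.60 and 8.97 (difference 0.96, adjusted p = 0.183; 0.037 without replicate 4). Ppy, the pancreatic polypeptide gene, differed by 0.81 (adjusted p = 0.282, and 0.0136 without Isl1-KO replicates 4 and 5). The fits quoted here without libraries were picked after the values were seen, so they show dependence on those libraries and do not test a rise.

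Of 7 α-cell genes tested, 2 rose, beside 7.02% of all genes called higher. These were Tmem27, by 1.25 (adjusted p = 4.01e-05), and Ttr, by 1.64 (adjusted p = 0.0156; 0.0965 without Isl1-KO replicates 1, 2 and 3, 0.0536 without replicates 4 and 5). Both are also made by β-cells, Tmem27 as a membrane protein that affects β-cell growth and Ttr as a carrier of thyroxine. The α-cell factor Irx1 was at 0 in 4 of 5 Isl1-KO libraries and in all WT libraries, and Irx2 lay at 0.35 (adjusted p = 0.733). The summed α-cell value was 18700 to 24700 in Isl1-KO and 6750 to 7680 in WT. Tmem27 and Ttr are part of this sum, so it does not measure α-cells alone. Their means were 13.21 and 12.71 in Isl1-KO and 11.96 and 11.06 in WT. Of 10 tested genes that mark δ-, PP- or ε-cells, Rbp4 fell and 2 rose, beside 8.39% and 7.02% of all genes. Without Isl1-KO replicates 1, 2 and 3 their median difference of 0.83 turned to -0.33 with 1 called higher, and without replicates 4 and 5 it was 1.60 with 5. Etv1, an ETS factor, read 6.81, 6.31, 6.64, 6.00 and 6.52 against 3.80, 3.50, 3.46, 2.46 and 3.95 (difference 3.02, adjusted p = 3.92e-08). The δ-cell factor Hhex was at -0.46 (adjusted p = 0.595). Ptprz1 lay at 2.25 (adjusted p = 0.0343), and its call was lost at 0.0525 to 0.089 without any 1 of WT replicates 1, 2 and 3 and Isl1-KO replicates 1, 2 and 3, and at 0.547 without those 3 Isl1-KO libraries. The part of other islet cells in these values was not tested.

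Among 14 duct genes 5 rose, beside 7.02% of all genes, and 4 of them kept the call in every fit that left out 1 library. Without replicates 4 and 5, 3 were called. Prom1 rose by 0.98 (adjusted p = 9.55e-04), the chloride channel Cftr by 1.79 (adjusted p = 0.0048), and Spp1, which encodes osteopontin, by 2.72 (adjusted p = 0.0118; 0.0691 in the 10 libraries alone and 0.0503 without Isl1-KO replicates 4 and 5). Ambp, also counted among the liver-type genes, was the fourth. Krt7 lay at 0.69 (adjusted p = 0.0239), a call lost without WT replicate 4 (0.0579) or Isl1-KO replicate 5 (0.0534). The summed duct value was 4960 to 7800 in Isl1-KO and 3750 to 4830 in WT, while the defining duct keratin Krt19 had a mean of 0.45 and 0.88. Whether ductal cells or β-cells carried these transcripts was not tested.

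No acinar or endothelial gene passed the limma test, of 30 and 5, and 1 acinar and 2 endothelial genes had an unadjusted p under 0.05. The acinar median of -1.04 turned to 0.58 without WT replicate 1, whose summed acinar value was 99600 beside 204 to 255 in the other WT libraries and 295 to 1620 in Isl1-KO. Of 7 immune genes, Fcer1g was called higher and H2-Aa lower, beside 7.02% and 8.39% of all genes. H2-Aa was listed at 0 in all Isl1-KO libraries and in WT replicate 4. Each of these immune calls was lost in 8 of the 10 fits without 1 library, at up to 0.126 for H2-Aa without WT replicate 1 and 0.119 for Fcer1g without Isl1-KO replicate 2. They stood at 0.233 and 0.14 without Isl1-KO replicates 1, 2 and 3. Of 4 mesenchyme genes, Col3a1 fell by 2.10 on the log2 scale (adjusted p = 0.0142; 0.203 without Isl1-KO replicates 1, 2 and 3), from 1.16 to 3.25 in WT to 0 in 4 of 5 Isl1-KO libraries.

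The largest rises outside the lists included genes with no settled role in islets. Wdr72, known for enamel formation, read 8.59, 5.87, 9.07, 8.23 and 8.85 in Isl1-KO and 1.75, 1.82, 0.00, 1.98 and 0.00 in WT. At 7.01 (SE 0.69, adjusted p = 2.46e-07) it was the largest rise of the genes named by rule. Its difference to Ldb1-KO, where it ran from 0.00 to 3.91, was 7.06 (adjusted p = 3.00e-07). Ros1, a receptor tyrosine kinase, stood at 6.75, 6.60, 5.82, 7.30 and 6.44 against 0.00 to 1.98, a rise of 5.19 (adjusted p = 1.44e-10). Nup62cl rose by 4.59 (adjusted p = 5.92e-09), Wfdc16 by 4.15 (adjusted p = 5.33e-11), the collagen Col19a1 by 4.02 (adjusted p = 1.58e-06) and Itih1, a plasma protein that stabilizes hyaluronan, by 4.01 (adjusted p = 7.87e-06).

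The largest falls took several genes to the bottom of the scale. Meox1, a homeodomain factor of somites, was at 0.00, 0.00, 1.00, 0.00 and 0.00 in Isl1-KO against 5.34, 5.03, 4.60, 4.24 and 5.10 in WT. The difference was -4.66 (SE 0.37, adjusted p = 4.78e-09). Cytip, a scaffold that regulates integrins, was listed at 0 in every Isl1-KO library and at 2.55 to 4.39 in WT (adjusted p = 4.01e-06). Matn2, a matrix protein, fell from 10.18 ± 0.51 to 6.23 ± 0.24 (SD, n = 5 each; adjusted p = 4.81e-08). Aox1, an aldehyde oxidase, stood at 3.49 to 3.92 against 7.18 to 7.51, a fall of 3.63 on the log2 scale (adjusted p = 5.93e-09). Tmsb15b2 and Slc28a2 fell by 4.10 (adjusted p = 5.93e-09) and 3.98 (adjusted p = 2.69e-07), and reads of both can be shared with near-identical copies.

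Some genes set the Isl1-KO libraries apart from both other groups. In all, 205 genes were above WT and above Ldb1-KO, 1.52% of those tested, and 238 were below both, 1.76%, and these pairs of comparisons share the Isl1-KO libraries. Besides Wdr72, Aldh1a3 and Crabp2, Iqgap2, a scaffold of the cytoskeleton, stood at 9.45, 9.20, 9.39, 8.80 and 8.75 against 6.32 to 7.14 in WT and 6.05 to 6.84 in Ldb1-KO. Its differences were 2.44 (adjusted p = 3.37e-09) and 2.71 (adjusted p = 2.35e-10). Nptx2, a synaptic pentraxin, was higher than in WT by 2.73 (adjusted p = 1.97e-04) and than in Ldb1-KO by 2.96 (adjusted p = 4.85e-05).

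S100z, a calcium-binding protein, stood at 1.03, 0.00, 1.00, 0.00 and 0.00 in Isl1-KO, at 3.83 to 4.75 in WT and at 6.62 to 7.46 in Ldb1-KO, so Isl1-KO and Ldb1-KO lay on opposite sides of WT. Its differences were -3.72 to WT (adjusted p = 1.81e-09) and -6.56 to Ldb1-KO (adjusted p = 1.02e-14). Pcp4, a calmodulin regulator, was below both by -3.05 (adjusted p = 3.96e-06) and -3.07 (adjusted p = 2.71e-06), and the synaptic vesicle gene Sv2b by -2.56 (adjusted p = 5.71e-06) and -2.53 (adjusted p = 5.60e-06). Lgi1, a secreted synaptic protein, fell by 3.46 on the log2 scale (adjusted p = 3.95e-11), with a difference of -1.49 to Ldb1-KO (adjusted p = 1.12e-05).

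By SD and correlation, the Isl1-KO libraries were about as alike among themselves as those of WT. The median SD of a gene was 0.35 in Isl1-KO and 0.32 in WT, and correlations between libraries of a group, across genes that are not independent replicates, were 0.950 to 0.973 and 0.936 to 0.975. The lowest WT correlation was that of replicate 1, which stood apart in acinar genes, with replicate 4. On the second principal component Isl1-KO replicates 1, 2 and 3 (47.4 to 56.6) were apart from replicates 4 and 5 (0.193 and -0.761). Trpm5 was 1 of the 6 genes whose SD in Isl1-KO was largest among abundant genes that were steady in WT. Dvl3, a WNT signal adaptor, was another, at 5.93, 6.11, 6.18, 3.44 and 4.95 in Isl1-KO against 4.24 to 4.90 in WT. Its difference was 0.69 (adjusted p = 0.229, and 0.00563 without Isl1-KO replicate 4). That replicate was the lowest and was picked after the values were seen, so the second p-value does not test a rise. For Rab6b, a Golgi GTPase, the Isl1-KO values were 3.88, 6.95, 5.49, 5.83 and 6.66 and the WT values 6.04 to 6.14.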

How the data were processed

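Total RNA of FACS-sorted, lineage-marked β-cells was sequenced from libraries made with a ScriptSeq low-input kit, per the labels' protocols. The authors' deposited table gives 1 log2 value per gene and library. No label names its normalization. The values themselves led to the reading log2(normalized value + 1): the lowest is 0 and the highest, 18.29, is shared by all 18 libraries. HOMER, edgeR and build mm9 stand in the submitters' processing notes without roles, and whether counting used strand is not given. The table holds no read totals, so the depth of a library is unknown and no counting interval is given. Each column was matched to a sample by name, and 0 columns of per-sample values were left unused.

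The planned count test needed counts, so limma 3.58.1 in R 4.3.3 was used (eBayes with trend and robust options, the latter through statmod 1.5.0) on 18 libraries together, with contrasts of Isl1-KO against WT and Ldb1-KO. Genes below a mean normalized value of 1 were left out. That mean ran over all 18 libraries, so a gene near 0 in WT could pass through a knockout group alone. P-values were Benjamini-Hochberg adjusted over the 13501 genes tested, two-sided, with a threshold of 0.05. Fold changes on log2(value + 1) understate those of low genes. SE is the moderated standard error. On data simulated for this comparison over 13501 genes, the fit called 77% of 100 genes with a log2 change of 1 and 96% of 100 with a change of 2. Of its 181 calls 8 were false. The simulation drew independent normal noise with 1 SD per gene and changed no gene near 0 in WT. It held no uneven libraries and no value ladder, so these rates need not hold for the real comparison.

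Members, lists and the naming rule were chosen with earlier results of these data known. The rule names Isl1 and Ldb1; up to 3 called genes of smallest p in each list; the 12 largest rises and falls whose mean normalized value reached 5, with no overlap between groups; the 6 genes furthest above and below both other groups; the 6 of largest SD and the 8 of highest mean in Isl1-KO. Not all of these are printed, and other list members were chosen after their values were seen. Alternatives were another filter, pseudocount, centring or variance model, the 10 libraries alone, a replicate block, each library left out, both sets of Isl1-KO libraries left out, and an exact permutation test per gene. The deposited peak lists were not used, since the reference tables are of another build. Promoters came from RefSeq tables on GRCm38.p6 holding 32851 sequences.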

Additional observations from a re-analysis of the deposited data

Results flagged for a closer look

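In 33 of 297 groups of 5 libraries examined, for the genes named above and in the last part, 1 library lay far from the others of its group. A chance rate of about 1 in 20 would hold only for normal values in groups not picked by their values. Some of these groups sit at the bottom of the scale or on the value ladder. There, 1 library that differs from otherwise equal ones is always flagged. Some genes were also named for a large SD in Isl1-KO. The count of 33 therefore cannot be set against that rate, and no excess over chance is read from it. Values are log2(normalized value + 1).

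Isl1-KO replicate 4 lay low for Trpm5 (3.14, others 5.48 to 5.91), Mafa (2.73, others 4.87 to 5.68) and Chrm3 (6.63, others 7.27 to 7.51), and high for Krt19 (2.23, others 0.00) and Chga (17.51, others 15.02 to 15.66). Isl1-KO replicate 3 lay low for Chgb (15.66, others 17.98 to 18.29) and Iapp (17.01, others 17.98 to 18.29). The same library was the high one for Ins1 (15.42, others 15.02), Meox1 (1.00, others 0.00) and Slc28a2 (2.23, others 0.00). Replicate 1 of Isl1-KO stood apart for Ttr (11.98, others 12.80 to 13.03), Sdha (9.70, others 9.94 to 10.02), Crhr2 (0.00, others 1.90 to 2.53) and Rarb (2.56, others 2.23 to 2.28). Replicate 2 of Isl1-KO was low for Wdr72 (5.87, others 8.23 to 9.07) and high for Esrrg (7.38, others 6.64 to 6.83). Replicate 5 had 1.00 for Lmo1 and for Col3a1, with the others at 0.00.

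WT replicate 1 had a mean of 10.15 over the acinar genes, where the other WT libraries had 1.30 to 1.76. It was also high for Ins1 (17.01, others 15.99) and Ins2 (18.29, others 17.98) and low for Iapp (15.99, others 18.29) and Chgb (13.96, others 14.37 to 14.50). These 4 genes stand on the coarse top of the value ladder. WT replicate 4 was low for Trpm5 (8.72, others 9.21 to 9.33), Mnx1 (5.62, others 6.34 to 6.51) and Ldb1 (7.11, others 7.57 to 7.66) and high for Tmem27 (12.29, others 11.84 to 11.93). Replicate 2 of WT was low for Fabp5 (3.33, others 4.09 to 4.16), Gcg (7.47, others 8.77 to 9.21) and Anxa10 (0.00, others 1.32 to 1.82). Replicate 3 of WT was high for Lgi1 (7.45, others 6.76 to 6.92) and Gast (1.16, others 0.00) and low for Nptx2 (0.00, others 1.16 to 1.39).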

How the results depend on the processing

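Of 3047 repeats of the single-gene results under the alternatives, 2778 kept direction and side of the threshold, 220 lost a call, 14 gained one and 35 turned direction. The 35 came from 16 genes, none called in the fit of all libraries or in the repeat. Without Isl1-KO replicates 1, 2 and 3 the turned differences were 0.86 for Scrn2, 0.36 for Fosb, 0.16 for Slc5a10, 0.17 for Rab6b, -0.43 for Dvl3, 0.22 for Hspa5, -0.32 for Nkx6-1, -0.33 for Sst and for Ppy and 0.24 for Krt19. Without replicates 4 and 5 they were -0.17 for Iapp, -0.23 for Chga, 0.24 for Hhex and -0.05 for Pcna. Leaving out 1 library gave -0.05 to 0.13 for Ldb1, -0.66 to 0.22 for Scrn2, -0.78 to 0.04 for Fosb, -0.61 to 0.16 for Rab6b, -0.44 to 0.23 for Iapp, -0.14 to 0.49 for Chga, -0.06 to 0.07 for Hspa5, -0.13 to 0.11 for Nkx6-1, -0.10 to 0.73 for Irx2 and -0.06 to 0.15 for Pcna. Leaving out 1 library gave 676 to 1058 genes higher and 823 to 1200 lower than WT, and at least 2-fold 431 to 571 and 343 to 421. Against Ldb1-KO these fits gave 520 to 1031 higher and 561 to 1207 lower. The lowest of these counts came without Isl1-KO replicate 3 for both, and without replicate 1 there were 593 lower. Without a filter on low values, 628 genes were higher than WT. A pseudocount of 10, which shrinks differences by construction, left 251 and 203 genes at least 2-fold higher and lower.

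The Isl1-KO libraries weighed unequally. Without replicates 1, 2 and 3, which leaves 2 libraries, 510 genes were higher and 603 lower than WT, and 183 higher and 153 lower than Ldb1-KO. Without replicates 4 and 5 there were 1335 and 1669 against Ldb1-KO; the cause was not tested. The 10 libraries alone gave 854 higher and 941 lower than WT. The shared replicate numbers did not pair the samples, with correlations of -0.167 to 0.164 between same-numbered libraries, and with the replicate number as a block the 10 libraries gave 866 higher and 871 lower, and 466 and 365 at least 2-fold. The comparison with Ldb1-KO cannot be had in those fits. The smallest p that an exact permutation test of 5 against 5 libraries can give is 0.00794. Steps of the value ladder limit the most abundant genes.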

Other observations

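Further genes reached by the naming rule showed falls of the same size as those above. Lrrc55, an auxiliary subunit of large-conductance potassium channels, read 4.28, 0.94, 4.13, 2.73 and 3.62 in Isl1-KO and 6.07 to 7.84 in WT. The difference was -3.75 (SE 0.52, adjusted p = 1.88e-05 by limma). It was higher in Isl1-KO than in Ldb1-KO, by 1.95 (adjusted p = 0.00712). The vomeronasal receptor gene Vmn2r29 lay at 0.94 to 2.19 in Isl1-KO, 4.11 to 4.60 in WT and 3.63 to 4.91 in Ldb1-KO, and its reads may be shared with other members of a large family. The pseudogene Bambi-ps1 fell by 3.67 on the log2 scale (adjusted p = 6.65e-08) while its parent gene Bambi rose by 1.13, and reads of the pair may be shared.

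Among the 8 genes of highest mean in Isl1-KO, Chga, a granin, differed by 0.29 (SE 0.30, adjusted p = 0.564), and Hspa5, the main chaperone of the endoplasmic reticulum, by -0.01 (adjusted p = 0.993). The nuclear RNA Malat1 was higher by 1.68 (adjusted p = 0.0122) in the fit of all libraries and at an adjusted p of 0.0917 in the 10 libraries alone and 0.203 without Isl1-KO replicates 1, 2 and 3. Of the genes with the largest SD in Isl1-KO, the immediate-early gene Fosb ran from 4.16 in replicate 1 to 7.42 in replicate 4, and Slc5a10, a sugar transporter, from 4.10 to 7.08.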
